A study of Mus musculus with 39 samples.

Results

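The genes described here are 33 markers of astrocytes, oligodendrocytes and neurons, read out in RNA from brain cells captured as endothelial. They were chosen by name, 10 for astrocytes, 9 for the oligodendrocyte lineage and 14 for neurons, and all 33 were found among the 24946 genes common to the deposited tables. No measured value entered the choice of genes by name, but the list was proposed with results of these data known.

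Brain cells were released by enzymes from whole brains of C57BL/6 pups and captured on beads carrying an antibody against PECAM, an endothelial surface protein, per the labels' protocols. The untreated cohorts held 5 wild types and 5 mutants each. Smad4 wild types were Smad4f/f and Smad4 mutants Smad4f/f; Cdh5-CreERT2, and the same scheme gave Alk1f/f and Engf/f animals without and with Cdh5-CreERT2. The labels give tamoxifen, the drug that switches this Cre on, at 300 µg on postnatal days 1 to 3 in the Smad4 and Eng models and at 100 µg on day 4 in the Alk1 model, with no group named as exempt, and collection on day 7, or on day 6 for Alk1. Further Smad4 pups were given 30 µg of control IgG (3 wild types and 3 mutants) or of LC10, an inhibitor of angiopoietin-2 (3 mutants), on days 2 and 4, and were collected on day 7. The Cdh5 promoter is active in endothelial cells, so glia and neurons are not the cells in which this Cre is meant to act. Since Cre was present in the mutants of each cohort and absent from the controls, its own effect cannot be told apart from the loss of the gene.

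Astrocytes contact the vessel wall with end-feet, clear glutamate and potassium, and are joined to each other by connexin channels. Oligodendrocytes arise from dividing precursors in the weeks after birth, and those that mature wrap axons in myelin, a membrane built from a small set of abundant proteins. Neurons are recognised by cytoskeletal proteins of their processes, proteins of the synaptic vesicle and enzymes that make their transmitters. None of these cells is the target of a PECAM capture, and their transcripts can enter such a preparation with whole cells, attached fragments or free RNA. Whether the captured cells themselves expressed a member was not tested.

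Values are shares of a library in ppm, a gene's value divided by the sum of all gene values in that library and multiplied by 1000000. The genes above 0 numbered 16105 to 17683 per library, and the values of a library summed to between 25496000 and 42825000, a 1.68-fold span. Between 5.89 and 54.7% of low values per library (median 8.52%) were whole multiples of the smallest one at a tolerance of 0.05. Whole reads could therefore not be recovered, and the depth is unknown. On the log2 scale, Smad4 fell by 1.65 ± 0.06 (SE) in Smad4 mutants (limma adjusted p = 2.17e-08) and by 1.37 ± 0.15 in IgG-treated mutants (adjusted p = 0.000556). Eng fell by 2.65 ± 0.08 in Eng mutants (adjusted p = 1.15e-09). Acvrl1, the gene for Alk1, stood at -0.12 ± 0.08 in Alk1 mutants (adjusted p = 0.279). Which exons were floxed is not in the labels, so the whole-gene value of Acvrl1 does not check the genotype of the Alk1 groups. The 12 endothelial genes of a marker list, among them Pecam1, summed to between 12980 and 16007 ppm, a span of 1.23-fold over all 39 libraries. The cohorts were deposited in separate tables whose normalization is not given, so levels set side by side across cohorts carry that limit. Some columns carry a library code in their name, which the labels do not explain: L146 on libraries 4 and 5 of each Smad4 group, L219 on libraries 4 and 5 of each Alk1 group, and L210 or, for library 5 of each group, L216 in the Eng cohort.

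The 33 glial and neuronal markers together made up 302 to 1806 ppm of a library, with a median of 633 ppm. That is a 5.98-fold span between libraries, beside 1.23-fold for the sum of the endothelial list, whose single genes also differed by genotype as given below. The lowest sum was in Alk1 mutant 3 and the highest in Smad4 wild type 1. Astrocyte members summed to 217 to 822 ppm, a 3.80-fold span. Oligodendrocyte members summed to 44.9 to 700 ppm, a 15.6-fold span, and neuron members to 34.8 to 285 ppm, an 8.18-fold span. Smad4 wild type 1 held the highest of all 3 sums.

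One regulatory stretch per cell type is shown, for the member with the smallest adjusted p in Smad4 mutants among those with a promoter entry: Aldh1l1 for astrocytes, Mag for oligodendrocytes and Gad1 for neurons. Each is the 250 bases before the transcript start, 5′ to 3′ in the direction of the gene, from RefSeq on GRCm38.p6, with matches to the E-box CANNTG in capitals. Of the 33 members, 24 had an entry in that table. Mag has 3 entries, of which the first is printed.
Aldh1l1, chr6:90550543-90550792, plus strand: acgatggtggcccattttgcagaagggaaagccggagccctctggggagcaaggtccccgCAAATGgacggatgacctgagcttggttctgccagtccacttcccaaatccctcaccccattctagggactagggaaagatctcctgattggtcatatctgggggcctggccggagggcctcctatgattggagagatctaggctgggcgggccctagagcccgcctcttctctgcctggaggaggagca
Mag, chr7:30914864-30915113, minus strand: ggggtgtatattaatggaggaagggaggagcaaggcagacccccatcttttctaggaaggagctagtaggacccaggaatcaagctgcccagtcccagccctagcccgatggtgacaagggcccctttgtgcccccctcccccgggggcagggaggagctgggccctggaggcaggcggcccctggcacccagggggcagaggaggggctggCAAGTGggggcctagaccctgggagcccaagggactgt
Gad1, chr2:70561879-70562128, plus strand: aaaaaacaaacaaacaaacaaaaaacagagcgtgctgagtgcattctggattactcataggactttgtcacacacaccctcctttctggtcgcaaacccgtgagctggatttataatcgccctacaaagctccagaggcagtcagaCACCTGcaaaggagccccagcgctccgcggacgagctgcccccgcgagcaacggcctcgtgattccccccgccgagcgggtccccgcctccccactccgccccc
The E-box is the core that basic helix-loop-helix factors such as Olig1, Olig2 and Neurod1 can bind. At least 1 match on either strand stood in 16 of the 24 member promoters (66.7%) and in 66.2% of all 32851 promoters of that length. The motif ACAAAG, which factors of the SOX family can bind and which does not overlap with the E-box letters, stood in 6 of the 24 and in 16.5% of all promoters. A match of letters is a description and shows no binding.

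**Figure D1:**
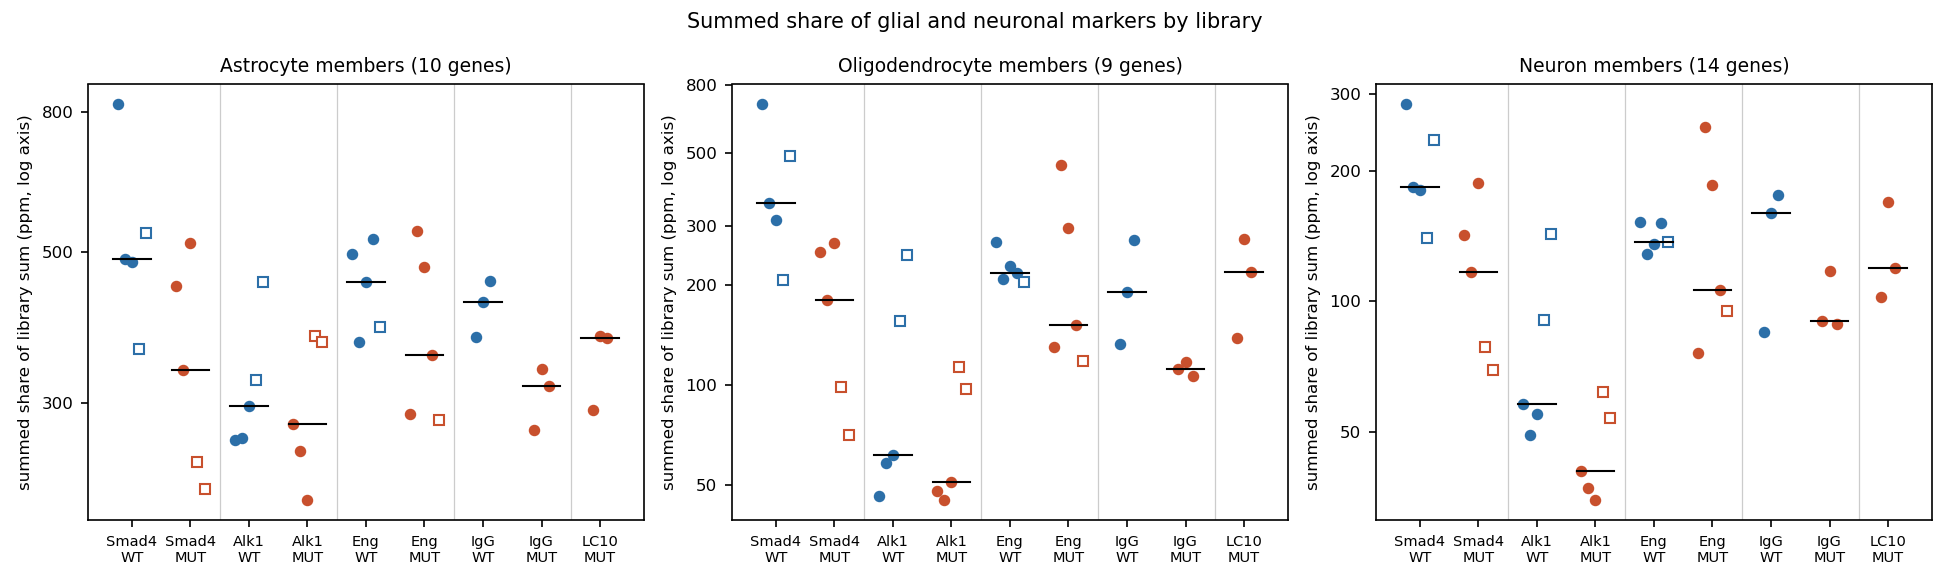
Summed share of the astrocyte, oligodendrocyte and neuron members in each of the 39 libraries, in ppm of the library sum on a log axis. Each point is a library, blue for wild types and orange for mutants, open squares mark the codes L146, L219 and L216, and the line is the group median. Smad4 wild type 1 is highest in all 3 panels, and the uncoded Alk1 libraries hold the lowest oligodendrocyte sums, from 44.9 to 61.6 ppm.

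Within each cell type a few genes carried most of the sum. Gja1, which encodes the gap junction protein connexin 43 and is also known from endothelial cells, made up 51.9% of the astrocyte sum on average, followed by the glutamate transporter gene Slc1a3 at 16.6%. Mbp, for myelin basic protein, made up 42.3% of the oligodendrocyte sum and Cnp, for an enzyme of non-compact myelin, 24.99%. Stmn2, which encodes a microtubule regulator of growing axons, made up 35.9% of the neuron sum and Map2, for a dendritic microtubule protein, 26.6%. These averages hide differences between libraries. Mbp ran from 21.4 to 58.6% of its sum and Cnp from 9.35 to 50.4%, and Cnp was above Mbp in 6 of 39 libraries. Map2 was above Stmn2 in 14 of 39, among them all Eng wild types. Per kilobase of exon, the mean share over all libraries was highest for Gja1 at 18.3 ppm per kb, then Mbp at 10.96, Cnp at 10.4, Olig1 at 8.43, Slc1a3 at 8.04, Gfap at 7.17 and Stmn2 at 6.74. It was lowest for Neurod6, a factor of cortical neurons, at 0.0920 ppm per kb. Mog, a myelin surface protein, was listed at 0 in 1 library (Alk1 wild type 3) and Neurod6 in 5, and their highest shares were 1.202 and 0.712 ppm.

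The members did not vary alike. Gja1 stayed within 140 and 239 ppm over all 39 libraries, a 1.70-fold span. Cnp spanned 3.48-fold (18.8 to 65.4 ppm), Sox9, a glial transcription factor, 3.59-fold (8.32 to 29.9 ppm) and Stmn2 3.78-fold (16.7 to 63.4 ppm). At the other end, Sox10, the factor that sets up the oligodendrocyte programme, spanned 206-fold (0.0650 to 13.4 ppm), the neuronal factor Neurod1 116-fold (0.164 to 19.1 ppm) and Olig2 96.7-fold (0.175 to 16.9 ppm). Dcx, a microtubule protein of immature neurons, spanned 69.2-fold, Mobp, a myelin protein, 62.7-fold, Cntn2, an axonal adhesion protein, 59.7-fold, Mag, the myelin-associated glycoprotein, 48.8-fold and Mbp 41.5-fold. The genes with the narrowest spans thus included the largest contributor of the astrocyte and of the neuron sum, so those sums moved less than most of their members. A low lowest value widens a span, and the values of Sox10, Olig2 and Neurod1 there were under 1 ppm.

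**Figure D2:**
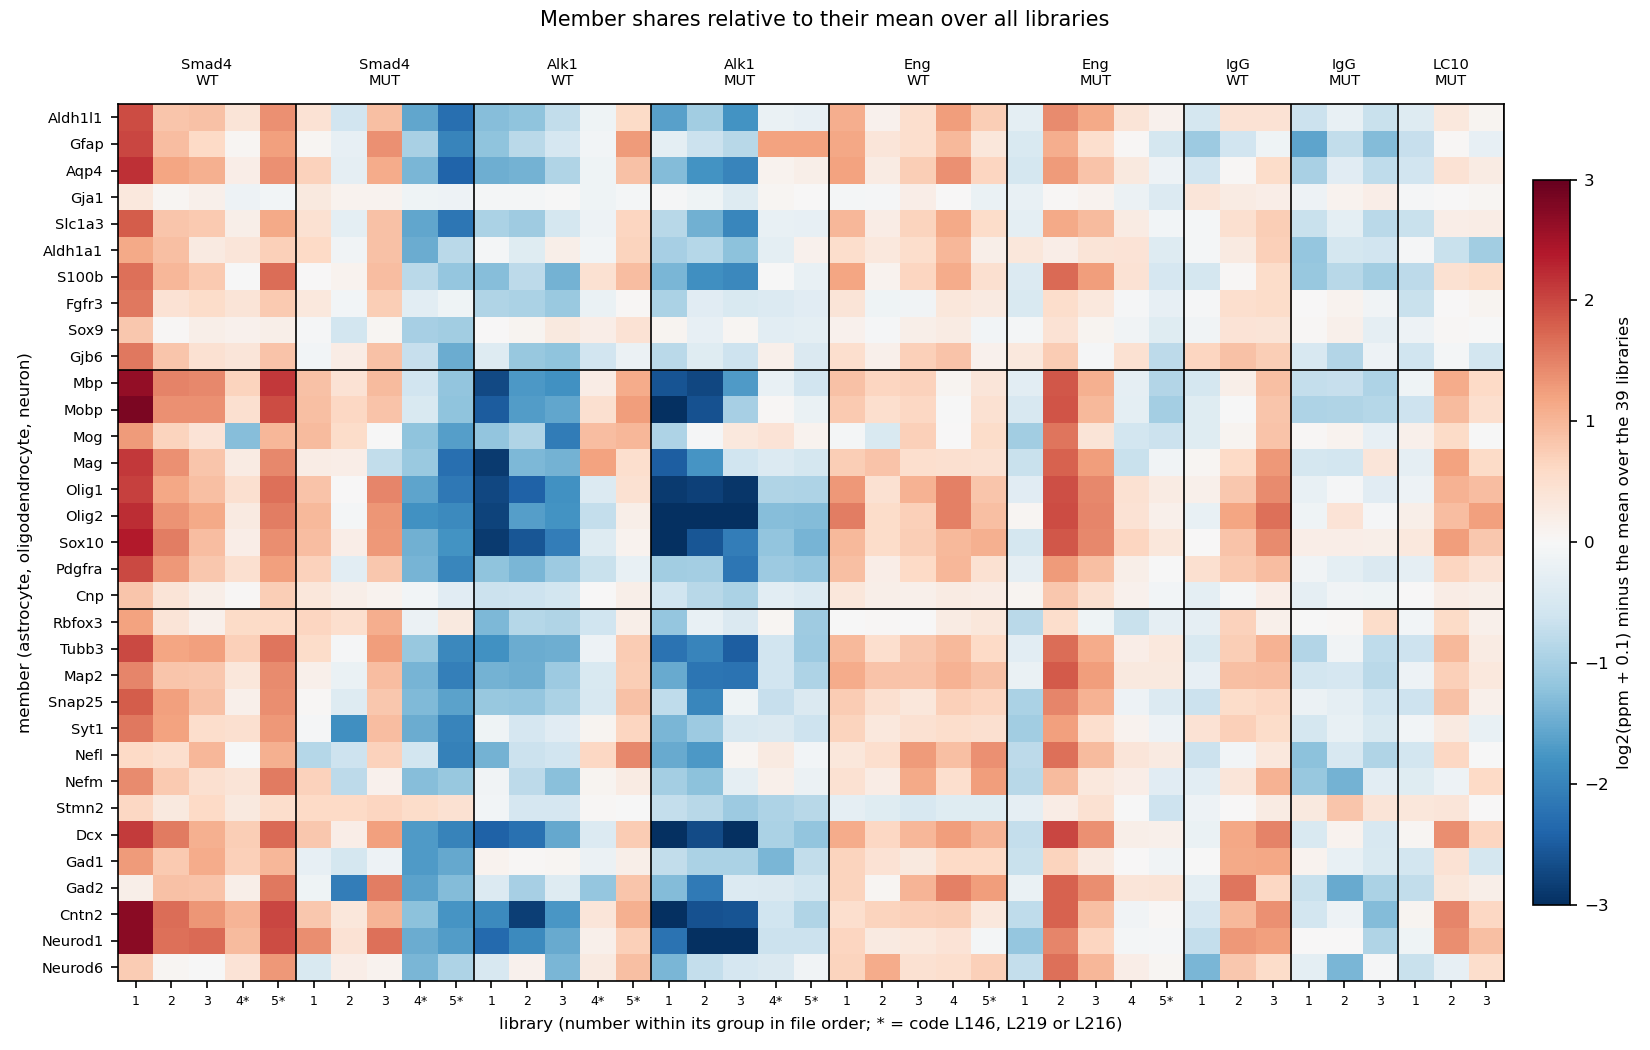
Share of each of the 33 members in each of the 39 libraries, as log2 of ppm plus 0.1 minus the member's mean over all libraries, from blue (lower) to red (higher). Columns are libraries in their groups and rows are members by cell type. Gja1, Cnp and Stmn2 stay near white, while Mbp, Sox10, Dcx, Cntn2 and Neurod1 are highest in Smad4 wild type 1 and lowest in uncoded Alk1 libraries.

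The first comparison asked how these markers differed between Smad4 mutants and their wild types. Of the 31 members tested, 15 fell and none rose, with a median log2 fold change of -1.41, against a median of -0.01 over all 14012 genes tested. Over all those genes limma called 15.8% lower and 17.2% higher. The 15 comprised 2 of 10 astrocyte, 4 of 8 oligodendrocyte and 9 of 13 neuron members. Mog and Neurod6 were too low to be tested. In bulk samples such as these, fewer cells of a type and less RNA per cell cannot be told apart.

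Among the astrocyte members, Aldh1l1, a folate enzyme used to mark the whole lineage, had shares of 31.2, 14.2, 14.6, 10.4 and 20.6 ppm in the wild types and 10.8, 5.28, 14.9, 2.63 and 1.56 ppm in the mutants. The groups overlapped through mutants 1 and 3, and mutants 4 and 5 were lowest. Aldh1l1 fell by 1.63 ± 0.53 on the log2 scale (adjusted p = 0.0370). Sox9 had 17.5 to 29.9 ppm in the wild types, highest in wild type 1, and 8.32 to 17.96 ppm in the mutants, and fell by 0.69 ± 0.21 (adjusted p = 0.0279). Slc1a3 stood at 120 ± 51.9 ppm (SD, n = 5) in wild types and 52.7 ± 39.5 ppm in mutants (log2 fold change -1.41 ± 0.51, adjusted p = 0.0546). S100b, a calcium-binding protein, came as close (-1.15 ± 0.41, adjusted p = 0.0509). Scaling to the library sum brought S100b past the threshold, and quantile normalization brought Slc1a3 past it. Gja1 had 168 to 233 ppm in the wild types and 168 to 229 ppm in the mutants, a log2 difference of 0.06 ± 0.09 (adjusted p = 0.620), which was -0.02 after scaling to the library sum. The other 5 astrocyte members, Gfap, Aqp4, Aldh1a1, Fgfr3 and Gjb6, lay between -1.57 and -0.57 with adjusted p of 0.0592 to 0.148.

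The oligodendrocyte members that fell included proteins of mature myelin and a receptor of precursors. Mbp was measured at 407, 185, 176, 103 and 285 ppm in the wild types and 119, 88.5, 126, 44.2 and 28.5 ppm in the mutants. Only wild type 4 lay within the range of the mutants. Mbp fell by 1.49 ± 0.43 (adjusted p = 0.0225). Mag had 8.95, 5.29, 3.60, 2.37 and 5.56 ppm in the wild types and 2.32, 2.26, 1.13, 0.865 and 0.330 ppm in the mutants. Every mutant was below every wild type, though wild type 4 and mutant 1 nearly met, and Mag fell by 1.92 ± 0.49 (adjusted p = 0.0125). Mobp fell by 1.38 ± 0.46 (adjusted p = 0.0403). Pdgfra, the growth factor receptor of oligodendrocyte precursors that fibroblasts also express, fell by 1.52 ± 0.49 (adjusted p = 0.0355). Cnp was less different, at 37.4 to 65.4 ppm in wild types and 28.8 to 46.6 ppm in mutants (-0.31 ± 0.15, adjusted p = 0.135). The lineage factors Olig1, Olig2 and Sox10 had log2 fold changes of -1.55 to -1.39 with adjusted p of 0.0753 to 0.0941.

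Neuron members gave the smallest adjusted p of the set. Gad1, which encodes the enzyme that makes the inhibitory transmitter GABA, had 7.76, 5.43, 6.84, 5.19 and 6.33 ppm in the wild types and 2.63, 2.13, 2.79, 0.900 and 1.01 ppm in the mutants. The groups were apart, with the lowest wild type well above the highest mutant. Gad1 fell by 1.76 ± 0.29 (adjusted p = 0.00120). Gad1 and Mag were the members for which all 5 mutants lay below all 5 wild types, 2 of 31, where 13.2% of all genes tested did so. The synaptic vesicle gene Syt1 fell by 1.90 ± 0.53 (adjusted p = 0.0202) and Snap25, of the fusion machinery, by 1.57 ± 0.46 (adjusted p = 0.0243). Cntn2 fell by 1.85 ± 0.52 (adjusted p = 0.0200) and Dcx by 1.66 ± 0.57 (adjusted p = 0.0442). Tubb3, a tubulin of neurons, fell by 1.54 ± 0.50 (adjusted p = 0.0357) and Map2 by 1.41 ± 0.46 (adjusted p = 0.0381).

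The neurofilament genes Nefl and Nefm were called lower too, by 1.30 ± 0.45 (adjusted p = 0.0454) and 1.40 ± 0.43 (adjusted p = 0.0286), and lost that call after quantile normalization. They lie on opposite strands and share 1108 exon bases, 32.8% of Nefl and 19.2% of Nefm, so with a kit that does not mark strand their values are not independent. In the same way Aldh1l1, Fgfr3 and Neurod1 share 13.37, 13.94 and 13.01% of their exon bases with other annotated genes, whose reads cannot be told apart there. Stmn2 did not go with the others. It had 55.0, 43.4, 54.1, 43.8 and 51.0 ppm in the wild types and 53.6, 54.2, 55.7, 52.5 and 48.6 ppm in the mutants (0.18 ± 0.07, adjusted p = 0.0605). Rbfox3, which encodes the nuclear antigen NeuN, stood at -0.03 ± 0.23 (adjusted p = 0.939). Neurod1 and Gad2, the second GABA enzyme, had -1.67 ± 0.63 and -1.53 ± 0.67 (adjusted p = 0.0606 and 0.1004).

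**Figure D3:**
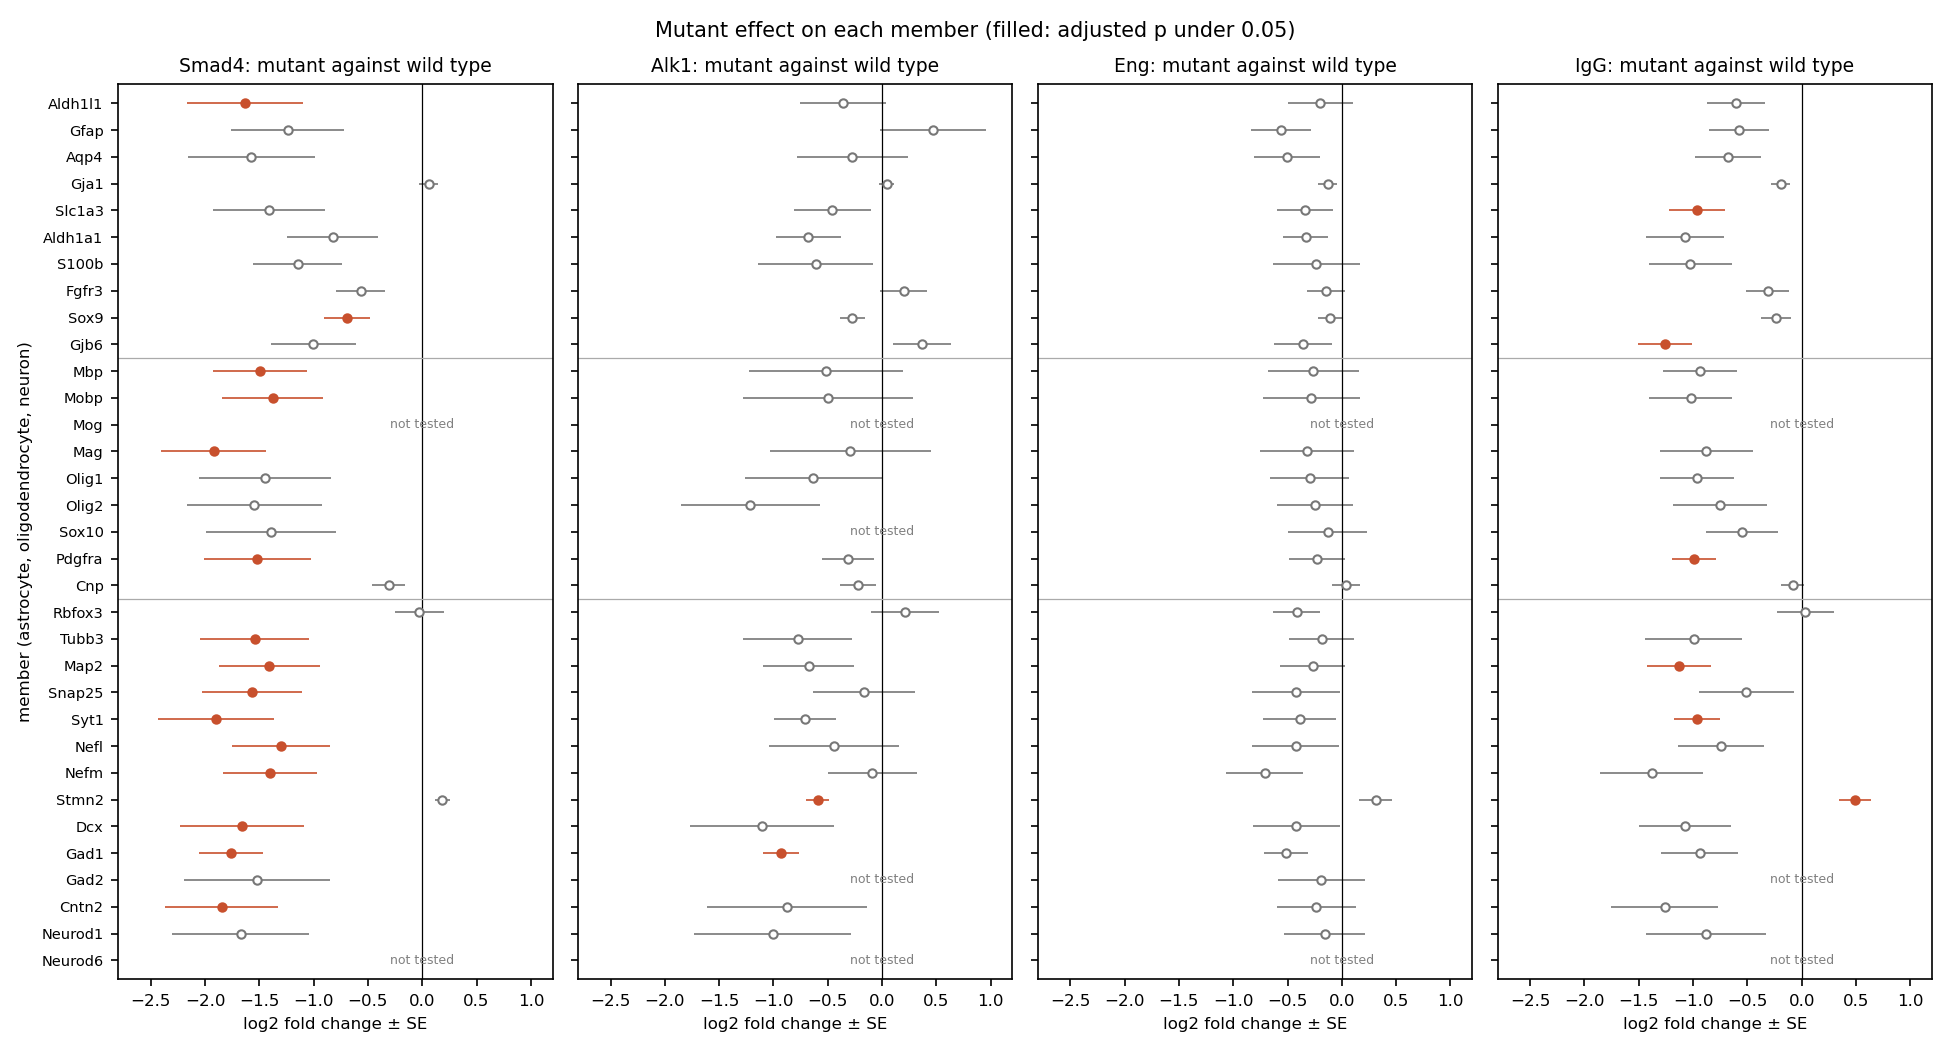
Log2 fold change (± SE) of each member, mutant against wild type, in the 4 comparisons, Smad4, Alk1 and Eng untreated and Smad4 with IgG, from limma on log2 of the value plus 2. Filled orange points have an adjusted p under 0.05, open grey points do not, and members under the filter are marked as not tested. Most Smad4 points lie near -1.41, the Eng points near -0.27, and Stmn2 stands to the right of the other neuron members in Smad4, Eng and IgG.

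Both L146 mutants were the lowest of the mutants in all 3 summed shares, with 225 and 246 ppm for astrocyte, 70.4 and 98.7 ppm for oligodendrocyte and 69.6 and 78.7 ppm for neuron members. The uncoded mutants had 336 to 516, 180 to 268 and 117 to 188 ppm. All 10 astrocyte, all 9 oligodendrocyte and 11 of 14 neuron members were lower in both L146 mutants than in every uncoded mutant, with median ratios of 0.317, 0.225 and 0.245. The L146 wild types did not stand apart that way: 1 astrocyte member, Gja1, was lower in both than in every uncoded wild type, and no oligodendrocyte or neuron member was. The share of all genes that split by code was not computed, so these counts cannot be called particular to the members.

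In the 3 wild types and 3 mutants without a code, 4 members were called lower (median -0.80), namely Mbp, Mag, Gad1 and Cntn2, where 7.92% of all genes were called lower. In the 2 against 2 libraries with code L146, 25 were called lower (median -2.34, with 20.2% of all genes called lower). With the code as a term in the fit, 25 were lower (23.0% of all genes) and Stmn2 was higher (22.8% of all genes). Gad1 kept its call both without the coded libraries (-1.34 ± 0.21, adjusted p = 0.00409) and within them (-2.39 ± 0.23, adjusted p = 0.00132). Leaving out single libraries moved the count from 2 to 27. The 2 came without Smad4 wild type 1, when Mag and Gad1 remained and 10.6% of all genes were called lower. The 27 came without mutant 3, when 19.4% were. The count also moved by more than 1.5 times without wild type 2 (6), 3 (8) or 5 (5) and without mutant 2 (7), 4 (4) or 5 (6), fits in which 10.9 to 13.2% of all genes were called lower.

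Percentages of the member sum turned on Gja1 and Stmn2, large contributors that were not called in Smad4 mutants. Astrocyte members made up 42.4 to 50.9% of the member sum in the Smad4 wild types and 53.1 to 61.6% in the mutants, with every mutant above every wild type. Without Gja1 they made up 33.04 to 37.4% and 29.0 to 41.0%, and the groups overlapped. Neuron members made up 18.1 ± 1.49% (SD, n = 5) in wild types and 18.48 ± 0.948% in mutants. Without Stmn2 they made up 13.1 to 15.3% in wild types and 6.63 to 14.4% in mutants, and their mean sum was 155 ppm in wild types and 66.1 ppm in mutants. Without both genes the groups overlapped for each of the 3 cell types. With all members, the sums in mutants were 0.658, 0.421 and 0.581 times those of the wild types for astrocyte, oligodendrocyte and neuron members, and in each 3 of 5 mutants lay below all wild types.

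Further markers of the same cell types were read beside the 15.8% of all genes called lower and the 17.2% called higher. The lists used in each cohort overlap. Zic1 is on the cerebellar neuron and pericyte lists, Cspg4 on the precursor and pericyte lists, and the member Pdgfra on the fibroblast list. Of further precursor markers 7 of 10 fell and none rose (median -1.45), led by Enpp6, an enzyme of newly formed oligodendrocytes, at -1.59 ± 0.15 (adjusted p = 2.47e-05). Further astrocyte markers fell in 3 of 15 cases (median -1.35), led by the glutamine synthetase gene Glul at -0.57 ± 0.08 (adjusted p = 0.000520). General neuron markers fell in 7 of 15 (median -1.40), forebrain neuron markers in 3 of 9 and cerebellar ones in 4 of 7. Myelinating oligodendrocyte markers fell in 4 of 8, and Cldn11, a tight junction protein of myelin, rose by 0.74 ± 0.19 (adjusted p = 0.0136). Other cell types that a PECAM capture can carry along were lower as well. Pericyte markers fell in 6 of 12 cases (median -0.91), smooth muscle markers in 5 of 6, fibroblast markers in 4 of 7, and erythroid markers in 3 of 4, with summed shares of 1210 ppm in wild types and 407 ppm in mutants for the last. Ependymal and choroid plexus markers fell in 2 of 5 (median -1.71). Their sum was lowest of all 39 libraries in Smad4 mutant 5 (102 ppm) and highest in Smad4 wild type 1 (4573 ppm). Microglia markers were called in 0 of 12 by limma (0 at an unadjusted p under 0.05, median -0.33), and endothelial markers had a median of 0.04, with 3 higher and 1 lower. Immediate early genes, which dissociation can induce, summed to 3751 ppm in wild types and 2718 ppm in mutants. The part of these shifts in the marker differences was not tested.

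The Alk1 cohort, a day younger and given a lower dose of tamoxifen, had the lowest group medians of the summed members, 369 ppm in mutants and 414 ppm in wild types. Of the 29 members tested, 2 fell, Gad1 and Stmn2, and none rose, against 15.7% called lower and 17.5% higher of all 13635 genes tested, with a median of -0.46 for the members. Both come from the neuron list, in which they had the lowest ratios of coded to uncoded libraries in either genotype. The mean share in L219 over that in uncoded libraries was 0.972 in wild types and 0.889 in mutants for Gad1 and 1.27 and 0.993 for Stmn2. Stmn2 was still higher in both L219 wild types than in every uncoded wild type. The other neuron members ranged widely, with ratios of 7.60 and 4.32 for Cntn2, 5.08 and 4.40 for Dcx, and 1.845 and 1.125 for Rbfox3. Sox10, Gad2, Mog and Neurod6 were under the filter, with shares of at most 2.69, 1.14, 0.754 and 0.385 ppm.

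Gad1 had 3.35, 3.18, 3.25, 2.77 and 3.57 ppm in the Alk1 wild types and 1.85, 1.58, 1.58, 1.14 and 1.83 ppm in the mutants. The groups were apart, and Gad1 fell by 0.93 ± 0.17 (adjusted p = 0.00120). Stmn2 had 34.0, 25.2, 25.3, 36.4 and 35.2 ppm in the wild types and 21.7, 20.01, 16.7, 18.8 and 19.9 ppm in the mutants. These groups did not overlap either, and Stmn2 fell by 0.59 ± 0.11 (adjusted p = 0.00143). For these 2 of 29 members all mutants lay below all wild types, as 13.8% of all genes did. In the 6 uncoded libraries Gad1 kept its call (-0.86 ± 0.21, adjusted p = 0.0295) and Stmn2 did not (-0.44 ± 0.14, adjusted p = 0.0723).

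Many members differed between coded and uncoded libraries. Mbp had 9.92, 19.7 and 18.6 ppm in the uncoded wild types, 76.6 and 141 ppm in the L219 wild types, 10.7, 9.80 and 19.9 ppm in the uncoded mutants and 55.6 and 43.5 ppm in the L219 mutants. So the L219 libraries of either genotype were above every uncoded library. In the wild types all 9 oligodendrocyte, 12 of 14 neuron and 6 of 10 astrocyte members were higher in both L219 libraries than in every uncoded library, with median ratios of 6.22, 3.01 and 2.03. In the mutants the counts were 7 of 9, 7 of 14 and 7 of 10, and 1 astrocyte member, Sox9, was lower in both L219 mutants than in every uncoded one. As for L146, the share of all genes that split by code was not computed, so these counts cannot be called particular to the members. With the code as a term in the fit, 13 members were called lower, among them Olig1, Olig2, Cnp, Tubb3, Map2, Dcx, Cntn2 and Neurod1, where 18.3% of all genes were. Within the 4 L219 libraries 14 were called lower (13.6% of all genes), and within the 6 uncoded libraries 1 (6.26%). Mbp stood at -1.02 ± 0.26 within L219 (adjusted p = 0.0255), -0.18 ± 0.36 without a code (adjusted p = 0.762) and -0.52 ± 0.71 over all (adjusted p = 0.612). Whether the effect of genotype differs between coded and uncoded libraries was not tested.

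Sox9 passed when each library was divided by its sum (-0.35, adjusted p = 0.0332) and stood at -0.27 ± 0.12 otherwise (adjusted p = 0.0952). Gja1 was at 0.04 ± 0.07 (adjusted p = 0.666), Slc1a3 at -0.46 ± 0.35, Cnp at -0.23 ± 0.17 and Map2 at -0.68 ± 0.42. Gfap, the intermediate filament of astrocytes, was the member with the highest positive value, 0.47 ± 0.49 (adjusted p = 0.501), with 56.8 and 57.4 ppm in the L219 mutants and 13.9 to 20.3 ppm in the uncoded ones. Neuron members made up 13.2 to 17.0% of the member sum in the Alk1 wild types and 10.4 to 11.5% in the mutants, with no overlap, both with and without the L219 libraries. Without Stmn2 the ranges were 6.87 to 13.3% and 5.39 to 8.09% and overlapped. Without both Stmn2 and Gja1 they were 14.03 to 17.2% and 10.8 to 12.7% and did not.

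In lists beside the members, further astrocyte markers fell in 2 of 15 cases in Alk1 mutants, below the 15.7% of all genes, among them Glul by 0.78 ± 0.07 (adjusted p = 1.09e-05). Precursor markers fell in 3 of 7, among them Enpp6 by 1.27 ± 0.17 (adjusted p = 0.000167). Myelinating oligodendrocyte and general neuron markers fell in 2 of 6 and 2 of 14, the latter again below that background, and forebrain and cerebellar neuron markers in 1 of 3 and 2 of 6. Smooth muscle markers fell in 5 of 6, erythroid markers in 4 of 4 and pericyte markers in 4 of 12. Of the 12 endothelial markers 1 fell and 4 rose. Microglia markers rose in 2 of 12 and immediate early genes in 3 of 15, near the 17.5% of all genes called higher. The 3 were Socs3, Ier3 and Atf3, and the immediate early list had a median of 0.53. The summed share of immediate early genes was 1877 ppm in wild types and 2704 ppm in mutants, with the highest of all libraries, 5230 ppm, in mutant 3. Their part in the values of Gad1 and Stmn2 was not tested.

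In Eng mutants no member passed the threshold. Of 31 tested, limma called 0 (1 at an unadjusted p under 0.05, Gad1), against 21.5% of 14350 genes called in either direction (9.08% lower and 12.4% higher) and 33.2% at an unadjusted p under 0.05, with a median of -0.27 for the members and -0.01 for all genes. Here 29 of the 31 values were negative, but the mutants differed strongly among themselves. Mbp had 121, 103, 105, 69.4 and 83.9 ppm in the wild types and 52.4, 238, 136, 53.9 and 35.4 ppm in the mutants. Mutants 2 and 3 lay above all wild types, and mutants 1, 4 and 5 below them, so that Mbp had -0.26 ± 0.42 (adjusted p = 0.721). The summed shares of oligodendrocyte and neuron members split the mutants in the same way, with 2 and 3 above all wild types and the others below. For neurons they were 129 to 152 ppm in the wild types and 75.8, 252, 185, 106 and 95.1 ppm in the mutants.

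Gad1 had 3.86 to 5.05 ppm in the Eng wild types and 1.92 to 4.99 ppm in the mutants (-0.51 ± 0.20, adjusted p = 0.0985), and passed after quantile normalization (-0.50, adjusted p = 0.0371). Stmn2 had 25.4 to 29.7 ppm in the wild types and 29.7, 41.5, 49.1, 35.5 and 23.3 ppm in the mutants (0.31 ± 0.15, adjusted p = 0.172). It passed as higher in the 8 libraries with code L210 (0.46 ± 0.12, adjusted p = 0.0230, where 12.4% of genes were called higher) and without mutant 5 (0.45 ± 0.11, adjusted p = 0.0146, where 11.9% were). Without mutant 2, Gfap, Rbfox3 and Gad1 were called lower, by 0.79 ± 0.22, 0.61 ± 0.16 and 0.66 ± 0.18 (adjusted p = 0.0257, 0.0216 and 0.0246). In that fit 7.54% of all genes were called lower. Gja1 (-0.13 ± 0.09), Slc1a3 (-0.34 ± 0.25), Cnp (0.03 ± 0.13) and Map2 (-0.27 ± 0.30) had adjusted p of 0.345 to 0.889. Among further markers 1 of 15 astrocyte (Glul), 1 of 10 precursor (Enpp6) and 1 of 9 myelinating oligodendrocyte genes (Mal) fell, where 9.08% of all genes did. Of the general neuron genes 1 of 15, Uchl1, rose by 0.22 ± 0.04 (adjusted p = 0.00163), where 12.4% of all genes rose. Erythroid markers fell in 3 of 5 cases. Endothelial markers fell in 4 of 12 and neural stem and radial glia markers in 2 of 9, with 1 higher in each of these 2 lists. No pericyte, smooth muscle or microglia marker was called. The part of these shifts in the member values was not tested.

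In the IgG-treated Smad4 pups, 5 of 30 members fell, where 10.8% of 14052 genes did, and Stmn2 rose, where 13.2% did. The median was -0.91 against 0.00 over all genes. The 2 astrocyte members were Gjb6, for connexin 30, and Slc1a3. Gjb6 had 3.08, 3.65 and 3.30 ppm in the 3 wild types and 1.35, 1.01 and 1.74 ppm in the 3 mutants, with no overlap, and fell by 1.25 ± 0.25 (adjusted p = 0.00782). Slc1a3 had 55.3, 81.0 and 96.8 ppm against 35.9, 46.8 and 32.66 ppm, also apart, and fell by 0.96 ± 0.25 (adjusted p = 0.0237).

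Pdgfra, the one oligodendrocyte member called, had 29.5, 36.4 and 40.0 ppm in the IgG wild types and 19.6, 17.1 and 15.4 ppm in the mutants, and fell by 0.99 ± 0.20 (adjusted p = 0.00881). Map2 had 23.2, 51.2 and 52.1 ppm against 18.6, 19.3 and 15.5 ppm and fell by 1.13 ± 0.29 (adjusted p = 0.0220). Syt1 had 2.35, 2.91 and 2.58 ppm against 1.17, 1.47 and 1.22 ppm and fell by 0.97 ± 0.21 (adjusted p = 0.0109), a call lost after quantile normalization. None of these groups overlapped. In all, 11 of 30 members had every mutant below every wild type, where 21.5% of all genes did, and 1 had every mutant above, where 18.1% did.

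Stmn2 went the other way, with 32.1, 35.9 and 42.2 ppm in the IgG wild types and 43.5, 63.4 and 46.5 ppm in the mutants. The groups were apart by a narrow margin, and Stmn2 rose by 0.49 ± 0.15 (adjusted p = 0.0369). That call was lost when each library was divided by its sum (0.46, adjusted p = 0.0535) and in a fit of the IgG table alone (adjusted p = 0.0564). It was also lost without wild type 1 or 2 or without mutant 2 or 3. Gad1 had 3.11, 6.96 and 7.14 ppm against 3.35, 2.65 and 2.26 ppm, so wild type 1 lay within the mutants (-0.94 ± 0.35, adjusted p = 0.0772). Gja1 had 214 to 239 ppm against 166 to 214 ppm (-0.19 ± 0.09, adjusted p = 0.140) and Cnp -0.08 ± 0.11 (adjusted p = 0.598). Mbp had 45.7, 74.2 and 121 ppm against 39.6, 40.5 and 34.4 ppm, apart but with wide wild types (-0.94 ± 0.34, adjusted p = 0.0713). Gad2, under the filter here, had 0.467 to 2.01 ppm against 0.143 to 0.337 ppm, and Mog 0.234 to 0.676 against 0.261 to 0.359 ppm. Wild type 1 was the lowest wild type in all 3 sums, and without it 15 members were called lower and none higher, where 7.59% of all genes were called lower. Without wild type 2 or wild type 3 the count was 3, where 6.42 and 8.72% were.

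Beside the members in the IgG pups, precursor markers fell in 6 of 10 cases, Enpp6 by 1.35 ± 0.19 (adjusted p = 0.00206). Further astrocyte and general neuron markers fell in 4 of 15 each. Forebrain neuron markers fell in 1 of 10, near the 10.8% of all genes called lower, and cerebellar ones in 3 of 7. Zic1 stands on both the cerebellar and the pericyte list and was counted in each. Myelinating oligodendrocyte markers fell in 0 of 8 by limma (4 at an unadjusted p under 0.05 in either direction), and Cldn11 rose by 0.73 ± 0.21 (adjusted p = 0.0329). Microglia markers fell in 11 of 12 (summed shares 936 and 483 ppm in wild types and mutants), pericyte markers in 8 of 12 (2885 and 1727 ppm), and endothelial markers summed to 15066 and 14739 ppm. Of the 12 endothelial markers 2 fell and 3 rose, where 10.8 and 13.2% of all genes did. The part of these shifts was not tested.

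**Figure D4:**
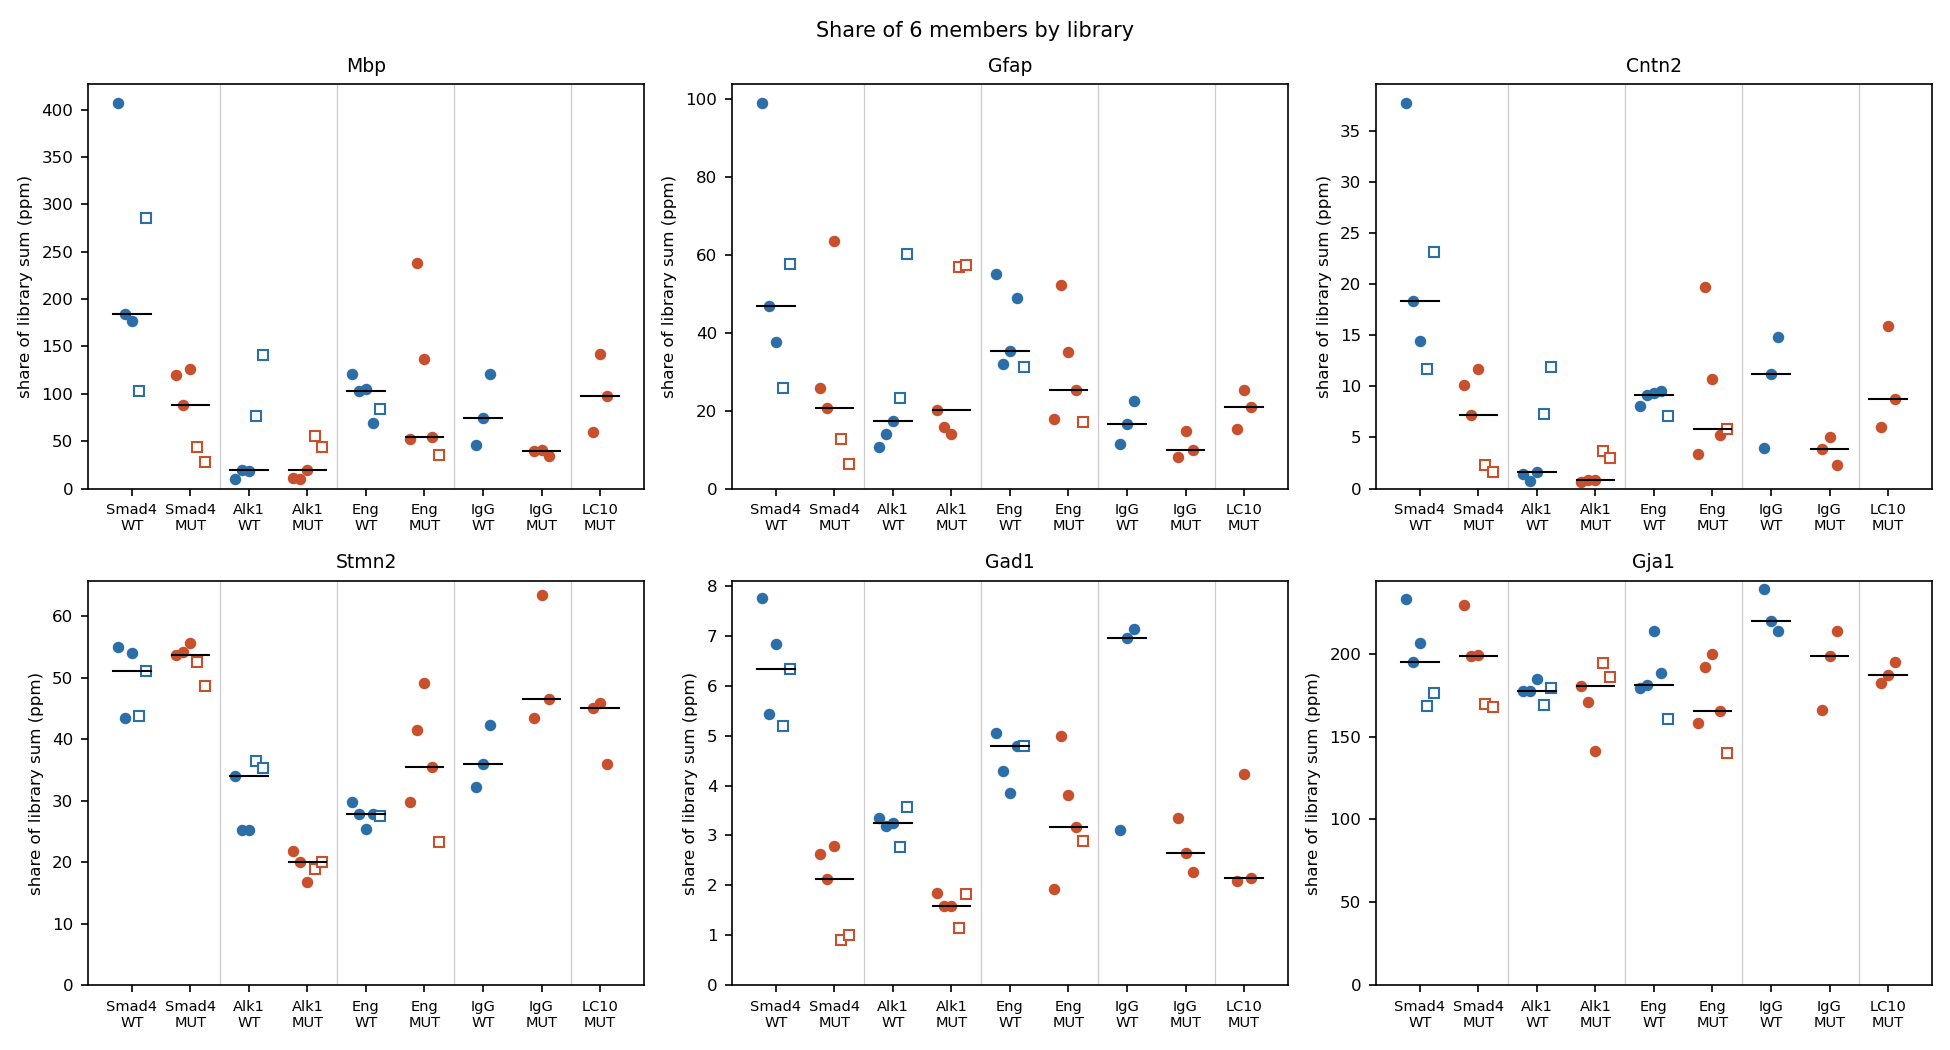
Share in ppm of Mbp, Gfap, Cntn2, Stmn2, Gad1 and Gja1 in each library, from a vertical axis that starts at 0. Each point is a library, blue for wild types and orange for mutants, open squares mark the codes L146, L219 and L216, and the line is the group median. Gad1 is lower in all mutants than in all wild types of the Smad4 and Alk1 cohorts, Stmn2 is lower in the Alk1 mutants and above all wild types in the IgG mutants, and Gja1 stays between 140 and 239 ppm.

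Differences between cohorts in the effect of genotype were tested in 1 limma model over the 30 untreated libraries. Between Smad4 and Alk1, 2 of 32 members differed, where 15.9% of 14701 genes did. Stmn2 had an effect 0.78 ± 0.17 higher in Smad4 than in Alk1 (adjusted p = 0.00225). Gjb6 had one 1.37 ± 0.47 lower in Smad4, a log2 difference of -1.37 (adjusted p = 0.0434), which passed neither after division by the library sum nor without the filter on low values. Between Smad4 and Eng, Gad1 alone of 32 differed (-1.25 ± 0.33, adjusted p = 0.0170), where 8.04% of genes did. Between Alk1 and Eng, Stmn2 alone differed (-0.90 ± 0.17, adjusted p = 0.000716), where 14.5% of genes did. For the other members no difference between cohorts was shown, which includes Mbp, Mag and Cntn2. The effects of Smad4 in the untreated and in the IgG-treated pups were not compared by a test.

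Ratios of members within a cell type are given as a description. Pdgfra is also expressed by fibroblasts, so Mbp over Pdgfra is not only a balance of mature and precursor oligodendrocyte genes. Mbp over Pdgfra, in ppm over ppm, had a median of 4.82 (3.52 to 5.74) in the Smad4 wild types and 5.28 (3.39 to 5.62) in the mutants, so both groups covered the same range. In the Alk1 wild types it ran from 1.09 to 7.82 and in the mutants from 0.945 to 5.69, with the lowest values in uncoded libraries. Mbp over the lineage factor Olig1 did not reach such low values, with 5.31 to 8.76 in the Alk1 wild types and 5.75 to 12.7 in the mutants. In the IgG cohort Mbp over Pdgfra was 1.55 to 3.03 in wild types and 2.02 to 2.37 in mutants. Gfap over Slc1a3 was 0.357 to 0.673 in the Alk1 wild types and 0.632 to 1.19 in the mutants, a small overlap, and 0.380 to 0.486 and 0.325 to 0.650 in the Smad4 groups.

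The LC10-treated mutants were measured in a table of their own, and treatment and table cannot be told apart, so their levels are given without a comparison. Astrocyte members summed to 294, 377 and 374 ppm, oligodendrocyte members to 139, 275 and 218 ppm and neuron members to 102, 170 and 119 ppm. In the IgG-treated mutants the sums were 274, 337 and 318 ppm, 112, 117 and 106 ppm and 90.1, 117 and 88.7 ppm. Mbp had 59.5, 141 and 98.1 ppm, Gad1 2.09, 4.24 and 2.15 ppm and Stmn2 45.1, 45.8 and 36.0 ppm in the LC10 mutants. LC10 mutant 2 was the highest of the group in all 3 sums.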

How the data were processed

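RNA of PECAM-captured brain cells was sequenced from TruSeq version 2 libraries, per the labels' protocols, a kit that does not mark strand. The values deposited by the authors are a signal for every gene in every library, and the submitters' processing notes name mm10 as the genome. The labels call the values raw counts, but they are fractional. How reads were aligned, counted and normalized is not given in the sources used here, so the plan for normalized values, a test on the log2 scale, was followed. From 24972 rows, 26 were dropped for names turned into dates or occurring more than once. A further 3 columns (LC10 wild types) match no sample and were not used. Untreated columns were joined to samples by group, so their numbers are file order.

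Values were analysed as log2 of the value plus 2 with limma 3.58.1 (R 4.3.3, intensity trend) for genes reaching 20 in 5 or more libraries (in 3 or more where antibody was given), with Benjamini-Hochberg adjustment over all genes and a threshold of 0.05. The pseudocount understates changes of low genes. The LC10 mutants entered the IgG fit for spread and filter only. Replicates are separate samples per the labels, which do not say that they are separate animals, so p-values measure the spread between these samples. The fit was tested on simulated data. Exon lengths and overlaps come from GENCODE M21. Named were members past the threshold, the 2 members per cell type with the highest mean share, members whose call a scaling changes, and up to 3 genes of other lists. The ranges, ratios, interaction values and a few further members were chosen after their values were seen. The members and all lists were chosen with earlier results of these data known.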

Additional observations from a re-analysis of the deposited data

Results flagged for a closer look

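In a group of 5 libraries, a highest or lowest value was singled out when its gap to the next library exceeded 0.71 of the group's range. Of 222 such tests 9 passed, and chance alone passes about 1 in 20 groups. Smad4 wild type 1 stood apart as high in Fgfr3 at 66.7 ppm (next 38.4 ppm) and in Sox9 at 29.9 ppm (next 19.3 ppm). Smad4 mutant 3 had 1.92 ppm of Gad2, where the next mutant had 0.539 ppm. Alk1 wild type 5, an L219 library, was apart in 4 members, with 60.1 ppm of Gfap, 45.5 ppm of Map2, 2.34 ppm of Snap25 and 1.14 ppm of Gad2. Low values stood out for Fgfr3 in Alk1 mutant 1 at 11.5 ppm and for Pdgfra in Alk1 mutant 3 at 4.57 ppm.

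The effect of genotype differed between cohorts, by the interaction test in limma, for Gjb6 (Smad4 minus Alk1, -1.37 on the log2 scale, adjusted p = 0.0434), Stmn2 (Smad4 minus Alk1, 0.78, adjusted p = 0.00225), Gad1 (Smad4 minus Eng, -1.25, adjusted p = 0.0170) and Stmn2 (Alk1 minus Eng, -0.90, adjusted p = 0.000716).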

How the results depend on the processing

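No called result changed sign under the alternatives run. Members called lower in Smad4 mutants (15) numbered 8 without the intensity trend, 23 in the joint fit, 25 with the library code as a term, 4 in uncoded and 25 in coded libraries. Members called higher (0) numbered 1 with the code as a term. Leaving out single libraries gave 2 to 27 lower and 0 to 1 higher. In Alk1 (2 lower) the counts were 1 at a value of at least 100, 13 with the code as a term, 1 in uncoded and 14 in coded libraries. In Eng (0 and 0) quantile normalization gave 1 lower, the L210 libraries alone 1 higher, and leaving out single libraries 0 to 3 lower and 0 to 1 higher. In the IgG pups (5 lower, 1 higher) the counts were 3 lower and 0 higher without the trend, 0 higher after division by the library sum, 0 higher in the IgG table alone, and 3 to 15 lower and 0 to 1 higher without single libraries. For Smad4 minus Alk1, Gjb6 was not called after division by the library sum or without the filter, which left 0 lower. The cause of these changes was not tested. Shares of all genes for the library codes and for the named single libraries left out stand in the paragraphs above. For the other fits they are not given, so those counts cannot be called particular to the members. The splits into coded libraries only and L210 libraries only, and the percentages without Gja1 or Stmn2, were chosen after seeing the data.

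The summed shares of mutants over wild types moved where one member or the weighting was changed. The log2 ratio for astrocyte members went from -0.60 to -1.09 in Smad4 and from -0.43 to -0.72 in IgG without Gja1, and to -0.71 in IgG as a mean of log2 values. For neuron members it went from -0.78 to -1.35 in Smad4 as a mean of log2 values and from -0.51 to -1.12 in IgG without Stmn2.

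Of the members called in Smad4, Gad1 (adjusted p 1.01e-06 to 0.00428) and Mag (0.00249 to 0.0334) kept their calls under every alternative in which they were tested. In the IgG pups the replicate block, which uses the numbers of the labels, gave 16 members lower (13.4% of all genes) and 1 higher. Same-numbered libraries correlated at 0.061, 0.028 and -0.073 in their deviations over 13939 genes, and differently numbered ones at -0.148 to 0.136. With 3 libraries per group the deviations within a group are tied to each other. These correlations therefore cannot show whether the numbers pair the samples. No paired analysis was possible for the untreated cohorts because their columns carry no replicate number of the labels. Depth is unknown, and the lowest members, such as Mog and Neurod6, were under the filter in every cohort.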
